A study of Mus musculus with 2 samples.

Results

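Among cells sorted from the mouse cecum for the immune surface protein CD45, a small set carried the RNA of fibroblasts, the collagen-making cells of connective tissue, and 145 of 19571 barcodes assigned to a mouse met the rule that defines them here. A barcode was kept with at least 500 UMIs (unique molecular identifiers, counted RNA molecules), at most 10% of them mitochondrial, and a highest hashtag count of at least 10 that was at least 3 times the next. It also had to hold at least 5 UMIs summed over Col1a1, Col1a2, Col3a1 and Dcn and no UMI of Ptprc, Cd79a, Cd3e, Cd3d, Cd3g or Csf1r. The rule therefore fixed the levels of these genes, and they are given below only as a description. Of the 23063 barcodes in the files, 22734 passed the depth and mitochondrial limits. The fibroblasts numbered 79 in CTRL 1, 25 in CTRL 2, 25 in Trpv1-ADC 1 and 16 in Trpv1-ADC 2.

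Fibroblasts of the gut wall secrete the collagens, proteoglycans and elastic fibres of the lamina propria, submucosa and outer layers. Those beneath the epithelium also make Wnt and bone morphogenetic protein ligands that set how crypt cells divide and mature, and chemokines that place immune cells. Fibroblasts answer injury, growth factors and mechanical change within minutes by inducing immediate early genes, whose products include the AP-1 transcription factors Fos and Jun.

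The study's title concerns Trpv1+ nociceptors, sensory neurons of pain, and their action on immune cells of the gut. All 4 mice, 2 of each group, were males aged 101 days, and the CTRL mice were littermates of the Trpv1-ADC mice. Per the labels all 4 had received AAV by the intraperitoneal route as neonates and CNO, the ligand of designer receptors, 7 times on alternate days, so the controls carry both treatments. For strain the labels give both Trpv1-WT.B6 and Trpv1-Cre.B6, not tied to single mice, and they do not name what the AAV carried. The CD45+ cells of the 4 mice were tagged with DNA-coded antibodies against CD45, pooled and run together, so mice of both groups share 1 droplet run and all 23063 barcodes were shared by the RNA and hashtag matrices.

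The mouse of each fibroblast was read from the hashtag, a 15-base oligonucleotide on the CD45 antibody. The 4 sequences are shown because every comparison between mice below rests on which of them a barcode carried.
CTRL 1, Hash1: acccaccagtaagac
CTRL 2, Hash3: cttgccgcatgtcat
Trpv1-ADC 1, Hash7: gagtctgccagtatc
Trpv1-ADC 2, Hash9: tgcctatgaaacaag

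The fibroblasts carried far less of their hashtag than the other cells of the same mouse. In CTRL 1 the median count of Hash1 was 76 in fibroblasts against 1126 in all other assigned cells. In CTRL 2 the median of Hash3 was 96 against 578. In Trpv1-ADC 1 the median of Hash7 was 65 against 254, and in Trpv1-ADC 2 that of Hash9 was 81 against 374. The background count of each tag, its median in cells of the other mice, was 17, 10, 5 and 8 in the same order, so that the fibroblast medians lay between the background and the tagged cells in every mouse. Of the 145 fibroblasts, 66 (45.5%) fell below the 1st percentile of the own-tag count of their mouse. HTODemux, the clustering-based tag caller of Seurat, called 79 of the 145 negative for all tags (54.5%), against 197 of 19426 other assigned cells (1.01%). The negative calls were 51 of 79 in CTRL 1, 12 of 25 in CTRL 2, 9 of 25 in Trpv1-ADC 1 and 7 of 16 in Trpv1-ADC 2. The mouse of these cells is therefore less certain than that of the other cells, and results are given with and without them.

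**Figure D1:**
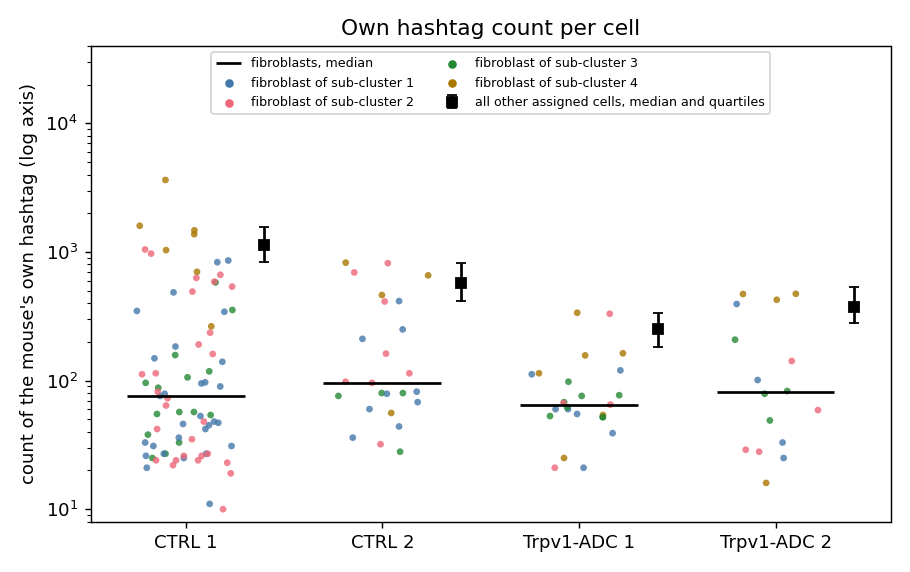
Count of the mouse's own hashtag (log axis) in each fibroblast, by mouse and coloured by sub-cluster, with the fibroblast median as a line and the median and quartiles of all other assigned cells as a square with bars. The fibroblast medians, 65 to 96, sit below the medians of the other cells, 254 to 1126. Over all mice the median of sub-cluster 4 is 463, against 60, 77.5 and 76 in sub-clusters 1 to 3. Some of its cells lie low, and in Trpv1-ADC 2 the lowest fibroblast, at 16, is of sub-cluster 4.

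A larger number of barcodes with the same RNA had no clear tag. The RNA part of the rule alone was met by 409 barcodes, of which 264 failed the tag part, 26 with a highest tag under 10 and 238 with a ratio under 3. Their median tag counts of 14, 10, 5 and 7 for the 4 hashtags were close to the background medians. In 153 of the 264 the highest tag was Hash1, the tag with the highest background. HTODemux called 340 of the 409 negative (83.1%), and these 340 made up 40.9% of the 832 barcodes that it called negative in the whole run. Another 738 assigned barcodes held at least 5 UMIs of the 4 matrix genes together with an immune gene that the rule excludes. Their median depth was 14041.5 UMIs against 7611 in the fibroblasts, and Scrublet, a caller of doublets from RNA, marked 37.0% of them against 11% of the fibroblasts, 9.74% of all other assigned cells and 1.52% of the untagged barcodes. Called doublets were left in the set, as the rule does not use them, and the effect of leaving them out is given below.

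The genes of the rule had, as chosen, a summed median of 117 UMIs per fibroblast with a range from 5 to 447. Just inside the limit, 13 cells with 5 to 7 matrix UMIs had a median of 8 UMIs over 14 other fibroblast markers. Just outside it, 18 cells with 2 to 4 matrix UMIs and no excluded gene had a median of 2. Just inside the tag limit, 35 fibroblasts with a ratio of 3 to under 4 had a median own tag of 33, and 83 barcodes with a ratio of 2 to under 3 had 23. Both of the latter sets held a median of 12 of the 14 fibroblast markers.

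Markers that the rule did not use went with the name. Levels here are in CPM, the UMIs of a gene summed over a set of cells and scaled to a total of 1000000 UMIs, and they compare a gene between sets of cells and not genes with each other. The other assigned cells with no matrix UMI (14129) served as the comparison, and no test was made because the cells were chosen by their RNA. Of 14 fibroblast markers outside the rule, 13 were higher in the fibroblasts, and their sum was 8994 CPM against 163. Pdgfra, a receptor for platelet-derived growth factor found on intestinal fibroblasts, stood at 418 CPM against 1.18, from 442 UMIs in 109 cells. Lum, which encodes the collagen-binding proteoglycan lumican, stood at 596 against 2.32. Col6a1, a chain of the microfibril-forming collagen VI, stood at 1169 against 3.40. Thy1, which T cells also express, was the exception at 82.3 against 132. The sum of the 14 ranged from 7444 to 10004 CPM over the 4 mice, and was 9871 in the 264 untagged barcodes.

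Most lists of immune, epithelial and endothelial markers were lower than in the comparison cells. Pan-immune markers outside the rule summed to 481 CPM against 5673, T cell markers to 157 against 3243, and macrophage or monocyte markers to 126 against 1351. Epithelial markers summed to 38.8 against 217 with Krt20 at 0, and those of blood endothelium to 59.6 against 265 with Emcn at 0. Of 7 neuronal markers only 1 was detected, and Trpv1, Calca, Snap25, Elavl4, Tubb3 and Prph were at 0. The 7 summed to 3.78 CPM against only 6.01, so little can be read from these zeros. Lists of other mesenchymal and neural-crest cells were above the comparison cells: smooth muscle or myofibroblast markers at 758 against 10.8, pericyte markers at 324 against 6.28, and enteric glial markers at 218 against 2.37. Innate lymphocyte markers summed to 138 against 171, with 22 CPM in CTRL 1, 182 in CTRL 2, 348 in Trpv1-ADC 1 and 222 in Trpv1-ADC 2. Reticular stromal markers summed to 319 against 127, and 3 cells held all UMIs of Ccl21a among them. The B or plasma cell list summed to 2596 CPM against 10358, with Cd79b at 0 against 46.2 and Mzb1 at 0 against only 1.54.

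Matrix and secreted genes were among those that most set the fibroblasts apart. The 30 genes with the largest ratio of fibroblast CPM to that of all other assigned cells held only Col1a2 and Col3a1 from the rule. Postn, the matrix protein periostin, stood at 1568 CPM against 60.0, and Gpc6, a cell-surface heparan sulfate proteoglycan, at 956 against 33.4. Complement genes were among them: C4b at 888 against 34.6, C1s1 at 752 against 30.6 and C1ra at 297 against 11.6. Serpina3n, a secreted inhibitor of serine proteases, stood at 588 against 19.2. Regulators on the list included Gli2, a transcription factor of hedgehog signalling, at 128 against 5.01, and Pitx1, a homeobox factor, at 124 against 5.11. Scn7a, a sodium channel, stood at 264 against 9.31. Csmd1 headed the list at 301 against 7.52, but its 318 UMIs came from 11 cells.

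The 145 cells fell into 4 sub-clusters by their own RNA (Leiden, resolution 0.5). They are called by number and leading genes, and the genes that define them are a description. Sub-cluster 1 (49 cells) was led by Hipk3, Cacna1c, Dmd and Tpm2, genes with roles in excitable or contractile cells among them. It held Ces1d, a carboxylesterase, at 1671 CPM against 414 in the other fibroblasts and the potassium channel Kcnn3 at 396 against 107. The contractile genes were carried by few of its cells: Acta2, smooth muscle actin, stood at 644 CPM from 11 cells, Myh11 at 335 from 7, and the pericyte gene Rgs5 at 416 from 9.

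Sub-cluster 2 (44 cells) was led by Pi16, Has1, Pcolce2 and Penk. Pi16 marks fibroblasts of adventitia and stood at 270 CPM against 2.40 in the other fibroblasts. Il6, an inflammatory cytokine, stood at 328 against 26.4, and Gas1, a hedgehog co-receptor, at 697 against 64.7. C3, the central complement protein, stood at 3530 CPM and Cd34 at 589. Adamdec1, a metalloprotease of lamina propria fibroblasts, was at 8.99 CPM here.

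Sub-cluster 3 (31 cells) was led by Ssh2, Pggt1b and Tacc1, and Wnt4, Bmp5 and Ereg were among its first 25 genes. Adamdec1 stood at 13032 CPM and was seen in all 31 cells. Wnt4 stood at 189 CPM, Bmp5 at 305, the growth factor Fgf10 at 308 and the epidermal growth factor receptor ligand Ereg at 259. Lama1, a laminin chain of basement membrane, stood at 137 against 20.6, and Col6a5 at 530 against 93.3. The chemokines Ccl11, which attracts eosinophils, and Cxcl12, which retains leukocytes, stood at 1527 and 1494 CPM. Wnt4 and Bmp5 are also on a list of 14 markers of the Pdgfra-high cells just beneath the epithelium. The list summed to 2143 CPM in sub-cluster 3 against 1165 in the other fibroblasts. Of the 14, 11 were detected in the 145 fibroblasts, and Foxl1, Bmp3 and Vstm2a were at 0. In the untagged barcodes these genes stood at only 1.04, 1.56 and 1.04 CPM, so their zeros say little.

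Sub-cluster 4 (21 cells) differed from the others in its tag and its genes. Its leading genes included Il23r, the receptor chain for interleukin 23, at 453 CPM against 1.10, Tnfsf11 at 392 against 5.50 and Il7r at 467, all known from type 3 lymphocytes. Tnfrsf9, Klrb1b and Gpr183, also lymphocyte genes, were among its first 10. The ranking is against the other fibroblasts, so that a fibroblast marker could hardly lead it. The lymphocyte genes go against the name fibroblast, so the cells of sub-cluster 4 are counted among the 145 by the rule only. Its median own tag was 463, against 60, 77.5 and 76 in sub-clusters 1 to 3, and only 4 of its 21 cells were tag-negative, against 32 of 49, 23 of 44 and 20 of 31. Its median of matrix UMIs was 47, against 101, 111 and 173. Its 14 fibroblast markers summed to 5680 CPM, against 8994 in all fibroblasts and 163 in the comparison cells. Its pan-immune markers summed to 1866, against 481 in all fibroblasts and 5673 in the comparison cells. Scrublet marked 7 of the 21, against 3, 6 and 0 cells of the others. Results without the sub-cluster are given below.

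**Figure D2:**
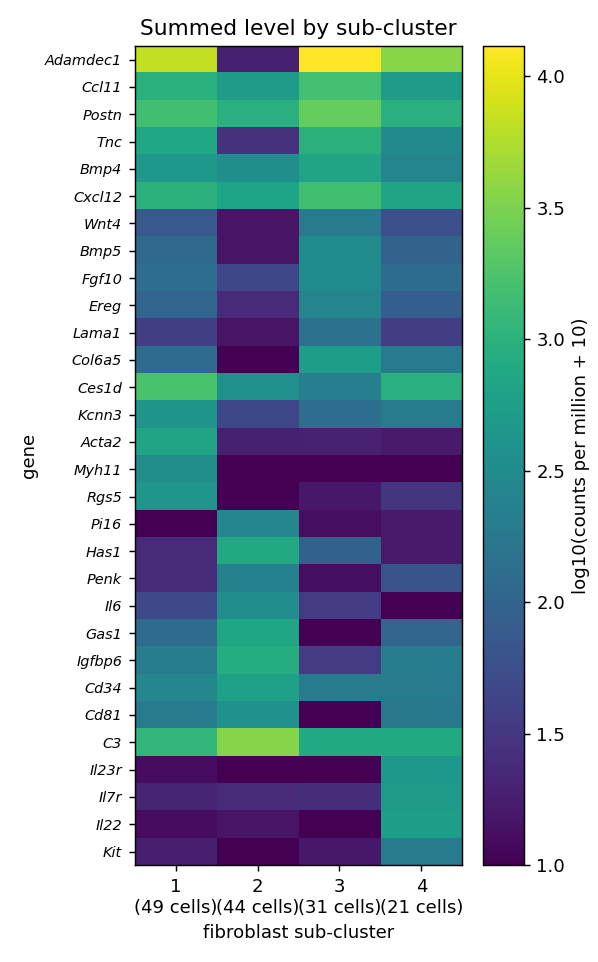
Summed level of 30 genes, as log10 of CPM plus 10, in the 4 fibroblast sub-clusters. Adamdec1 reaches 13032 CPM in sub-cluster 3 and 8.99 in sub-cluster 2, while Pi16, Has1 and Il6 are brightest in sub-cluster 2 and Il23r, Il7r and Il22 in sub-cluster 4.

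The share of fibroblasts among assigned cells was 1.54% in CTRL 1 (95% Clopper-Pearson interval 1.22 to 1.92, counting error only), 0.537% in CTRL 2 (0.348 to 0.792), 0.525% in Trpv1-ADC 1 (0.340 to 0.775) and 0.317% in Trpv1-ADC 2 (0.182 to 0.515). CTRL 1 stood apart, and the other 3 mice had overlapping intervals. The CTRL mean was 1.04% ± 0.711 and the Trpv1-ADC mean 0.421% ± 0.147 (SD, n = 2), a difference of -0.619 percentage points with a two-sided exact permutation p of 0.33. That is the smallest p that 2 mice against 2 can give. Without CTRL 1 the difference was -0.116 points. Among HTODemux singlets, 63 cells in all, it was -0.188 points (exact permutation p = 0.667). These are cells that passed a CD45 sort, so the shares say nothing about the number of fibroblasts in the cecum.

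The sub-clusters held few cells in each mouse. In the order CTRL 1, CTRL 2, Trpv1-ADC 1 and Trpv1-ADC 2, sub-cluster 1 held 29, 9, 7 and 4 fibroblasts, sub-cluster 2 held 28, 8, 4 and 4, sub-cluster 3 held 15, 4, 8 and 4, and sub-cluster 4 held 7, 4, 6 and 4. The differences in the sub-clusters' shares of a mouse's fibroblasts, Trpv1-ADC minus CTRL, were -9.85, -13.2, 11 and 12.1 percentage points for sub-clusters 1 to 4, each with an exact permutation p of 0.33. They are given as a description only, since Has1, a leading gene of sub-cluster 2, differed between the groups (below), and as few as 4 cells lie behind a share.

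Genes were compared between the groups on UMIs summed per mouse, 545675 in CTRL 1, 186520 in CTRL 2, 221184 in Trpv1-ADC 1 and 103435 in Trpv1-ADC 2, with edgeR's quasi-likelihood test and Benjamini-Hochberg adjustment over 3894 genes. The median depth per fibroblast was 7173, 7993, 9401 and 5720 UMIs. The p-values set each change against a spread between mice, 2 a group, that edgeR estimates for each gene partly from all genes together. Past an adjusted p of 0.05 were 22 genes (0.565%), 4 higher (0.103%) and 18 lower (0.462%) in Trpv1-ADC fibroblasts, and the median log2 fold change of all 3894 was 0.02. At an unadjusted p under 0.05 there were 213 lower (5.47%) and 139 higher (3.57%) genes. In 38.6% of all genes both mice of one group lay outside the range of the other, 17.1% lower and 21.5% higher in Trpv1-ADC mice. All 22 genes past the threshold were among them, and on simulated counts the test called 69.5% of genes changed 4-fold, 13.8% of those changed 2-fold and 0% of those changed 1.5-fold.

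Immediate early genes made up the largest group of the genes that fell in Trpv1-ADC fibroblasts. Of 41 on the list 34 could be tested: 8 fell, 0 rose, and 24 (70.6%) were lower at an unadjusted p under 0.05. The median log2 fold change of the 34 was -0.92 against 0.02 for all genes tested, and 32 of the 34 were below 0, the exceptions being Nr4a3 at 0.74 (adjusted p = 0.67) and Dusp5 at 0.50 (adjusted p = 0.80). Both Trpv1-ADC mice were below both CTRL mice for 27 of the 34 (79.4%). In all other assigned cells the median of the same genes was -0.16.

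Of the AP-1 factors, Fos and Junb carried this most clearly. Fos (chr12:85473890-85477273 of mm10, plus strand) stood at 4402 and 3528 CPM in the CTRL mice and at 2184 and 1953 in the Trpv1-ADC mice. The groups did not overlap, and the log2 fold change was -0.96 ± 0.16 (SE; edgeR adjusted p = 0.030). Junb (chr8:84974484-84978718, minus strand), a partner of Fos, stood at 3207 and 3839 against 1732 and 1576. Its change was -1.11 ± 0.16 (edgeR adjusted p = 0.012), again without overlap. Jun (chr4:95049034-95052222, minus strand), the founding member of its family, stood at 3158 and 2713 against 1542 and 1634. Its log2 fold change was -0.91 ± 0.15 (edgeR adjusted p = 0.032). Fosb, a close relative of Fos, stood at 2531 and 2413 against 1393 and 1334, with a change of -0.88 ± 0.15 (edgeR adjusted p = 0.033). Atf3, a stress-induced factor that pairs with AP-1 proteins, stood at 1030 and 1163 against 547 and 396. Its change was -1.22 ± 0.21 (edgeR adjusted p = 0.038). In each of these 5 genes both Trpv1-ADC mice lay below both CTRL mice.

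Zfp36, Dusp1 and Ier2, regulators induced in the same early response, fell as well. Zfp36 (chr7:28376784-28380253, minus strand) encodes tristetraprolin, which binds and destabilises mRNAs of cytokines. It stood at 1699 and 1490 CPM in CTRL and at 606 and 474 in Trpv1-ADC mice, a change of -1.57 ± 0.19 (edgeR adjusted p = 0.0042). Dusp1, a phosphatase that switches off MAP kinases, stood at 1994 and 1823 against 1094 and 1044, a change of -0.86 ± 0.16 (edgeR adjusted p = 0.047). Ier2, a short-lived nuclear protein, stood at 1536 and 1163 against 457 and 638, a change of -1.35 ± 0.23 (edgeR adjusted p = 0.032). Among those that did not pass, Egr1 stood at 3073 and 3555 against 2315 and 1460 (log2 -0.83 ± 0.21, adjusted p = 0.16), Nr4a1 at 810 and 869 against 466 and 406 (adjusted p = 0.081) and Nr4a2 at 139 and 241 against 45.2 and 38.7 (adjusted p = 0.081).

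Promoters of 3 of the fallen AP-1 genes are shown, the 150 bases before the RefSeq start on the gene's strand (build GRCm38.p6), because the members moved together and the letters let a reader look for shared elements. Capitals mark the only motif found in them.
Fos, chr12:85473740-85473889, plus strand: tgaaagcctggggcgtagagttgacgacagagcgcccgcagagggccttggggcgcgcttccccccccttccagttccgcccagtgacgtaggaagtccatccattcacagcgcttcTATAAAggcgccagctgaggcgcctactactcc
Jun, chr4:95052223-95052372, minus strand: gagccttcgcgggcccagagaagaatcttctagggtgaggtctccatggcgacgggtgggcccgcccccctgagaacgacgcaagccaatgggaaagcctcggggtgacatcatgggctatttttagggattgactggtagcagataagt
Junb, chr8:84978749-84978898, minus strand: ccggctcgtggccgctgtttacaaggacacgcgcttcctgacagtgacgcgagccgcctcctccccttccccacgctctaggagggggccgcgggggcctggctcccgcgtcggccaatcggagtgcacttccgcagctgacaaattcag

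The search covered the 250 bases before the start for the cAMP response element TGACGTCA and the AP-1 site TGANTCA on both strands, the TATA box TATAAA on the gene's strand, and the CArG box of serum response factor, by its name, on both strands. A match of the first motif does not contain the second, a CArG box can contain a TATA box, and exact letters only were counted. Of the 8 immediate early genes that fell, 7 matched a RefSeq promoter by symbol and Ier2 did not. Dusp1 held the cAMP response element, Fos the TATA box and Zfp36 the CArG box, 1 gene each, and 0 of the 7 held the AP-1 site. Over all 27025 genes with a promoter the shares were 1.77% for the cAMP response element, 7.82% for the AP-1 site, 8.94% for the TATA box and 1.62% for the CArG box. Of the 29 tested immediate early genes with a promoter, 3, 1, 4 and 2 held them in that order. No motif was held by more than 1 of the 7, which says nothing of which factors bind there.

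Summed over the 34 genes, immediate early RNA made up 35704 and 35074 CPM in the CTRL mice and 19219 and 17828 in the Trpv1-ADC mice. The groups did not overlap. The same sum in all other assigned cells was 15926 and 16272 against 15251 and 14301, and in the 264 untagged barcodes it was 36147. The level differed between the sub-clusters, from 17977 CPM in sub-cluster 3 to 51870 in sub-cluster 2. Within sub-cluster 1 the values were 35049 and 30262 in CTRL against 20082 and 4491 in Trpv1-ADC mice. Within sub-cluster 2 they were 54485 and 57956 against 29759 and 47732, and within sub-cluster 3 they were 20769 and 25556 against 13089 and 10171. Each Trpv1-ADC value in these 3 sub-clusters rested on only 4 to 8 fibroblasts. The groups did not overlap in these 3. In sub-cluster 4, with 28970 and 21645 against 23982 and 18595, they did. Among HTODemux singlets the sums were 34797 and 41546 against 19608 and 14107, and among tag-negative fibroblasts 36059 and 30581 against 18118 and 28331, without overlap in either.

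**Figure D3:**
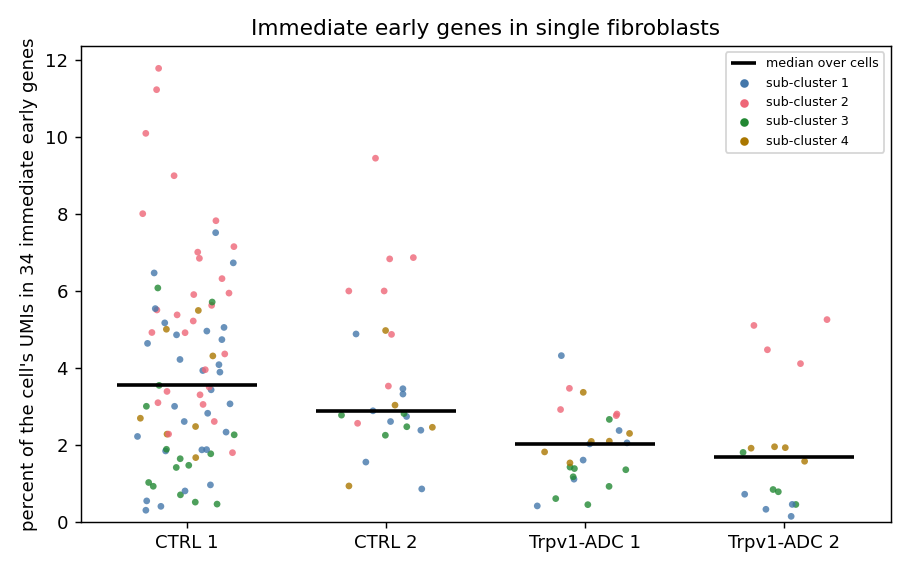
Percent of each fibroblast's UMIs in the 34 tested immediate early genes, by mouse, coloured by sub-cluster, with the median over cells as a line. The medians correspond to 35418 and 28806 CPM in CTRL and 20202 and 16844 in Trpv1-ADC mice. The highest cell is of sub-cluster 2 in CTRL 1, CTRL 2 and Trpv1-ADC 2. In Trpv1-ADC 1 it is of sub-cluster 1, at 43143 CPM.

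Other genes that fell included secreted proteins of injury and growth responses. Ccn1, a matrix-bound protein induced through YAP, stood at 1334 and 1480 CPM in CTRL and at 678 and 773 in Trpv1-ADC mice, a change of -0.98 ± 0.18 (edgeR adjusted p = 0.046). Adamts1, a protease that cleaves proteoglycans, stood at 508 and 541 against 154 and 213, a change of -1.57 ± 0.27 (edgeR adjusted p = 0.037). Tnfaip6, which binds hyaluronan and is induced by inflammatory cytokines, stood at 718 and 708 against 330 and 280, a change of -1.23 ± 0.22 (edgeR adjusted p = 0.044). None of these groups overlapped. Cxcl1, a chemokine that attracts neutrophils, stood at 447 and 483 against 85.9 and 106, a change of -2.32 ± 0.29 (edgeR adjusted p = 0.0053). Has1, a hyaluronan synthase and a leading gene of sub-cluster 2, stood at 205 and 418 against 58.8 and 29.0, a change of -2.68 ± 0.49 (edgeR adjusted p = 0.046).

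Zc3hav1 (chr6:38305286-38354603, minus strand), which encodes an antiviral protein that binds CpG-rich RNA, stood at 1182 and 1126 CPM in CTRL and at 258 and 242 in Trpv1-ADC mice. It was seen in 97 of the fibroblasts, its change was -2.23 ± 0.20 (edgeR adjusted p = 0.00053), and in all other assigned cells its change was 0.09 ± 0.06. Tmem176b (chr6:48833818-48841496, minus strand), an intracellular membrane protein with ion channel activity, rose. It stood at 1098 and 1088 in CTRL and at 2482 and 2204 in Trpv1-ADC mice, in 105 cells, with a change of 1.08 ± 0.16 (edgeR adjusted p = 0.012) against -0.24 ± 0.09 in the other cells. Its neighbour Tmem176a had a change of 0.77 with an adjusted p of 0.064.

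Some of the larger changes rested on few cells. BC028777, an antisense transcript, stood at 1.83 and 16.1 CPM in CTRL against 484 and 454 in Trpv1-ADC mice, from 7 cells (log2 6.21 ± 0.57, edgeR adjusted p = 0.00053). Whether the counts used strand is not given in the sources used here, so its reads cannot be told apart from those of an overlapping gene. Il22 stood at 9.16 and 21.4 against 267 and 126, from 8 cells (log2 3.96 ± 0.53, edgeR adjusted p = 0.0085), of whose 81 UMIs 58 and 13 lay in 1 cell each. Cxcl9, a chemokine induced by interferon gamma, stood at 22 and 53.6 against 249 and 367, from 12 cells (log2 3.17 ± 0.46, edgeR adjusted p = 0.012). Tagln, a smooth muscle protein, stood at 231 and 241 against 9.04 and 19.3, from 11 cells (log2 -4.21 ± 0.49, edgeR adjusted p = 0.0034). The difference lay in the tag-negative cells, at 293 CPM in CTRL and 24.4 in Trpv1-ADC mice, while HTODemux singlets stood at 4.4 and 4.3. The other 8 smooth muscle markers summed to 520 and 1378 CPM in CTRL and 289 and 203 in Trpv1-ADC mice, and their part in the Tagln result was not tested.

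The 22 genes were also read without the single cell of each mouse that held most UMIs of the gene. In 13 genes no cell held more than 21.4% of the UMIs of its group, and in 9 (Igkc, Igha, Jchain, BC028777, Tagln, Cxcl1, Il22, Cxcl9 and Has1) the top cell held 42.2% to 80.6%. Without those cells 20 of the 22 still did not overlap. The 22 were chosen for a difference in these same data, and no share over all genes was computed without the top cells. Il22 then stood at 3.75 and 5.60 CPM in CTRL against 4.93 and 0 in Trpv1-ADC mice, and Cxcl9 at 18.7 and 11.6 against 19.7 and 0. All 8 immediate early genes, Zc3hav1 and Tmem176b were among the 13.

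The other 3 genes that fell were immunoglobulin genes, named after their values were seen. Igkc, the kappa light chain, stood at 1648 and 1769 CPM against 244 and 213 (log2 -2.91 ± 0.20, edgeR adjusted p = 0.00011), Igha at 973 and 1431 against 136 and 145, and Jchain at 359 and 220 against 9.04 and 19.3. All 3 are on the B and plasma cell list. Its other 7 markers summed to 328 and 354 CPM in CTRL and to 326 and 358 in Trpv1-ADC fibroblasts, which overlap. Most of each sum was Xbp1, at 308 and 343 CPM in CTRL and 316 and 338 in Trpv1-ADC fibroblasts. Xbp1 was higher in the fibroblasts than in the comparison cells, at 319 against 125. The sums therefore say little of B or plasma cell content. Cd79b was at 0, against 46.2 CPM in the comparison cells, and Cd79a was at 0 by the rule. Mzb1 was at 0 too, but at only 1.54 CPM in the comparison cells, so its 0 says little. In all other assigned cells the change of Igkc was -1.30 ± 0.47. Whether the immunoglobulin RNA lay in these cells or was free RNA was not tested.

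The change in fibroblasts differed from that in all other assigned cells of the same mice for 17 of 3894 genes (0.437%) by an edgeR interaction test. Of the 22 genes above 13 were among these 17, 4 higher and 9 lower, and 0 of the 22 passed in the other cells alone, where 74 of 19238 genes passed. The difference of log2 changes was -2.34 ± 0.22 for Zc3hav1, -1.28 ± 0.22 for Zfp36, -0.98 ± 0.15 for Junb and 1.28 ± 0.20 for Tmem176b. For Atf3 (adjusted p = 0.093), Fosb (adjusted p = 0.10) and Dusp1 (adjusted p = 0.20) edgeR's test of the difference did not pass. Over the 34 immediate early genes the median difference was -0.78, against 0.05 for all genes.

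**Figure D4:**
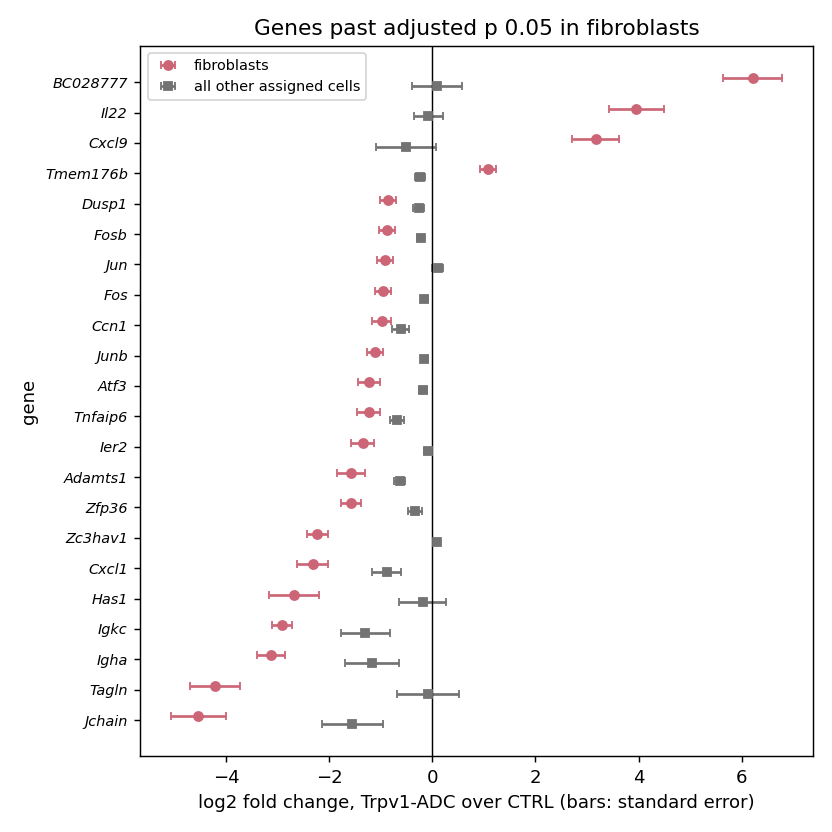
Log2 fold change, Trpv1-ADC over CTRL, with standard errors, of the 22 genes past an adjusted p of 0.05 in fibroblasts (circles) and of the same genes in all other assigned cells (squares). Immediate early genes lie between -1.57 and -0.86 in fibroblasts, and 4 genes lie above 0.

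The calls depended on which barcodes were trusted to their mouse. Among HTODemux singlets edgeR called 5 genes, 3 of them among the 22, and with a stricter tag rule 6, of which 4 were among the 22. Among the 79 fibroblasts at or above the 1st percentile of own tag, a setting chosen after seeing the data, edgeR called 0 of 3066 genes, with 166 at an unadjusted p under 0.05. Without sub-cluster 4, also chosen after seeing the data, edgeR called 20 genes, 14 of them among the 22. The immediate early list then had 7 of 33 that fell and a median of -1.09, while Ier2 (adjusted p = 0.066), Fosb and Tnfaip6 (adjusted p = 0.064 each), Adamts1 (adjusted p = 0.12), and Has1 and Ccn1 (adjusted p = 0.089 each) did not pass, and Il22 and Cxcl9 were too low to be tested. Without CTRL 1 it called 123 and without each other mouse 99 to 120, fits in which 1 group is a single mouse assumed to vary like the other group. Each of the 22 that was tested kept its direction in every one of these settings. Over 15 settings the log2 fold change ran from -2.46 to -1.97 for Zc3hav1, from -1.88 to -1.40 for Zfp36 and from -1.54 to -1.01 for Junb. It ran from -1.16 to -0.83 for Fos, from -1.09 to -0.32 for Dusp1 and from 0.95 to 1.77 for Tmem176b. How many of the 22 passed hung on the setting. With at most 5% mitochondrial UMIs all 22 passed and with DESeq2 21, but with the own-tag setting 0. The median of the immediate early list lay between -1.09 and -0.79 over the same settings.

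Structural matrix genes outside the rule showed no member past the threshold. Of 16 tested collagens other than Col1a1, Col1a2 and Col3a1, 0 passed and the median log2 fold change was -0.08. Col1a1, the main chain of type I collagen, chose the cells and stood at 2928 and 2364 CPM in CTRL and 2762 and 2069 in Trpv1-ADC mice. Col6a3, a chain of collagen VI, stood at 1136 and 686 against 647 and 512 (log2 -0.68 ± 0.25, edgeR adjusted p = 0.46). Of 45 proteoglycans and matrix glycoproteins other than Dcn 0 passed with a median of -0.21, and 9 were lower at an unadjusted p under 0.05. Mfap5, of elastic microfibrils, stood at 156 and 161 against 13.6 and 67.7 (edgeR adjusted p = 0.13), and Fn1, fibronectin, at 848 and 681 against 488 and 425 (adjusted p = 0.21). Of 18 collagen-processing genes 0 passed (median -0.02), where Serpinh1, the collagen chaperone, stood at 1730 and 1469 against 1732 and 2108. Of 22 matrix proteases and inhibitors Adamts1 alone fell (median -0.35), and Adamdec1 stood at 7743 and 6321 against 6072 and 4641 (edgeR adjusted p = 0.47).

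Among 23 genes of the TGF-beta and YAP response Ccn1 and Tagln fell and 0 rose, and the median was -0.46. Myl9, a myosin light chain of contractile cells, stood at 134 and 273 against 40.7 and 9.67 (adjusted p = 0.081). Postn, also on this list, stood at 1649 and 1292 against 1677 and 1402.

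Ligands of the crypt niche and growth factors had 0 members past the threshold. The 11 tested Wnt, R-spondin and BMP genes had a median of -0.02. Wnt4 stood at 80.6 and 48.3 CPM in CTRL and at 113 and 145 in Trpv1-ADC mice (log2 0.85 ± 0.38, edgeR adjusted p = 0.55), and Bmp2 at 82.5 and 129 against 36.2 and 29.0 (log2 -1.59 ± 0.46, adjusted p = 0.24). Bmp4, which restrains crypt stem cells, stood at 511 and 327 against 515 and 309. The 12 growth factors had a median of 0.06, and Fgf10 stood at 161 and 75.1 against 194 and 242.

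Of 17 tested chemokines and cytokines of stromal cells Cxcl9 rose and Cxcl1 fell, and the median was -0.04. The Cxcl9 rise rested on the top cell of each Trpv1-ADC mouse, as given above. Cxcl12 stood at 1026 and 751 CPM against 1279 and 947, and Ccl11 at 1057 and 772 against 1072 and 802, each with overlap. Il6 stood at 103 and 145 against 36.2 and 38.7 (log2 -1.70 ± 0.43, edgeR adjusted p = 0.15). Il33, an alarmin of stromal cells, stood at 67.8 and 80.4 against 109 and 222 (adjusted p = 0.47). Of 15 cytokine and innate receptors 0 passed (median 0.26), among them the interleukin 1 receptor Il1r1 at 136 and 139 against 249 and 174. Complement had 0 of 8 past the threshold (median 0.09), and C3 stood at 1153 and 1271 against 1736 and 2929 (log2 0.92 ± 0.24, edgeR adjusted p = 0.20).

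Interferon response and antigen presentation genes had positive medians and 0 members past the threshold. The 14 tested interferon genes had a median of 0.90, with 6 higher at an unadjusted p under 0.05, and their median over 15 settings ran from 0.46, over 8 tested genes without sub-cluster 4, to 1.66. Psmb9, an immunoproteasome subunit, stood at 22 and 21.4 CPM against 85.9 and 87.0 (log2 1.94 ± 0.51, edgeR adjusted p = 0.17). Irf1 went the other way, at 189 and 359 against 172 and 87.0 (adjusted p = 0.51). The 15 MHC genes had a median of 0.53, with 11 above 0 and 4 below. B2m, the shared light chain of MHC class I, stood at 1100 and 1153 against 1465 and 1856 (log2 0.53 ± 0.18, edgeR adjusted p = 0.34). Cd74, of MHC class II, went the other way with overlap, at 167 and 558 against 217 and 67.7 (log2 -1.20 ± 0.80, edgeR adjusted p = 0.80). The 7 tested genes of retinoid metabolism had a median of 0.76. Rarres2, the secreted chemerin, stood at 861 and 852 against 1614 and 1383 without overlap (log2 0.79 ± 0.17, edgeR adjusted p = 0.086).

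Of 53 neuropeptide and transmitter receptors 39 had a UMI in the fibroblasts, 9 had enough to be tested and 0 passed, with a median of 0.11. Calcrl, the shared receptor chain for CGRP and adrenomedullin, stood at 365 and 188 CPM in CTRL and 439 and 300 in Trpv1-ADC mice, in 78 cells, with overlap (log2 0.38 ± 0.34, edgeR adjusted p = 0.86). Its partner Ramp2, used for adrenomedullin, stood at 97.1 and 69.7 against 122 and 58.0, and Ramp1, the partner for CGRP, had 88 UMIs in 31 cells and was not tested. Npy1r, a receptor of neuropeptide Y, was at 211 CPM in sub-cluster 2 and at 0 to 6 in the others. Vipr2, a receptor of vasoactive intestinal peptide, was at 113 CPM in sub-cluster 3 and at 18 to 41 in the others. Of 13 neurotrophic and axon guidance genes 0 passed (median 0.05), and Slit3, a repellent of axons, stood at 920 and 874 against 615 and 1179.

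In the remaining lists, Fosb alone fell among 24 genes of the cAMP and CREB response (median -0.19) and 0 rose. Of 16 heat shock genes 0 passed in fibroblasts, with a median of -0.03 against 0.42 for the same genes in all other assigned cells. Cryab, a small heat shock protein, stood at 97.1 and 85.8 CPM against 258 and 271 (log2 1.48 ± 0.31, edgeR adjusted p = 0.081). Of 22 mesenchymal transcription factors 0 passed (median -0.12), with Tcf21 at 616 and 370 against 850 and 599. Lipid and metabolic genes had 0 of 11 past the threshold (median 0.17), and Gsn, the actin-severing gelsolin, stood at 9172 and 6074 against 3210 and 5240 (edgeR adjusted p = 0.47). The prostaglandin pathway had 0 of 7 (median -0.30) and the cell cycle list 0 of only 2 tested.

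**Figure D5:**
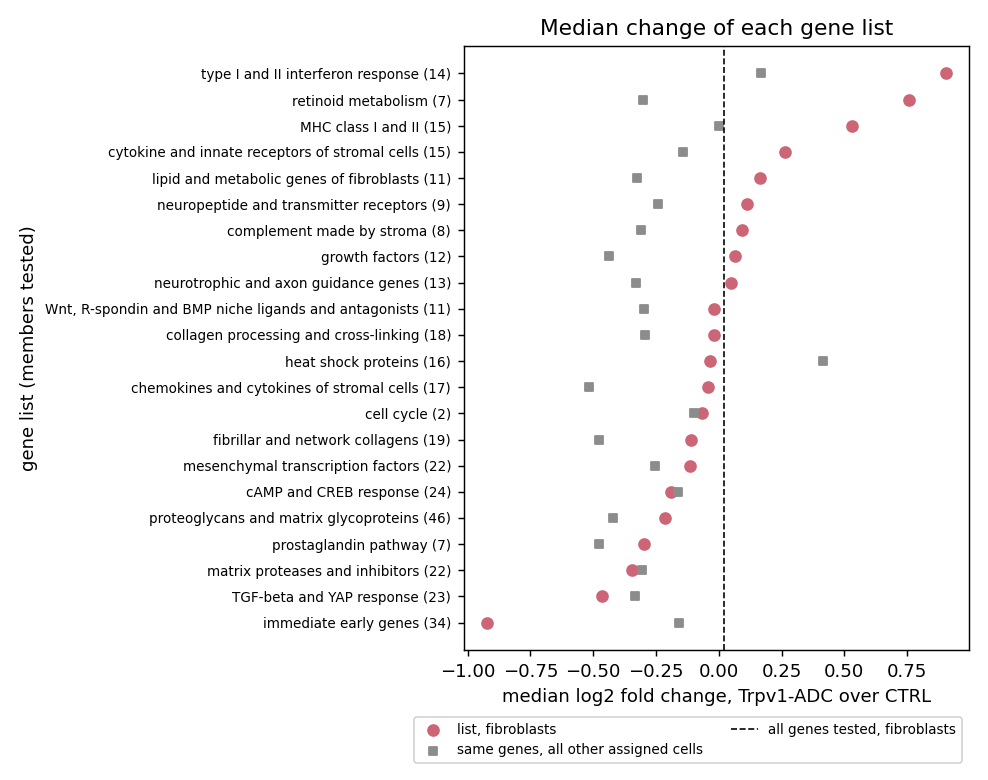
Median log2 fold change, Trpv1-ADC over CTRL, of each gene list in fibroblasts (circles) and of the same genes in all other assigned cells (squares), with the number of genes tested in brackets and the median of all genes tested as a dashed line. Immediate early genes lie lowest at -0.92 and interferon response genes highest at 0.90.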

How the data were processed

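The authors deposited whole-number count matrices from 1 droplet run: UMI counts per gene and barcode, and counts per hashtag and barcode. The submitters' processing notes name Cell Ranger, Seurat and mm10. Not given in the sources used here are the aligner settings, the annotation, strand use, the choice of barcodes and whether a hashtag count is of UMIs or reads. The labels' protocols disagree on the chemistry, 5' in one place and 3' in another. The members and the gene lists were chosen with earlier results of these data known.

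Tags were also called with HTODemux (Seurat 5.3.0, quantile 0.99) and doublets with Scrublet (scanpy 1.11.5, expected rate 0.2). Sub-clusters used 1000 variable genes, 20 principal components, 10 neighbours and Leiden (leidenalg 0.10.2). Counts were summed per mouse, filtered with filterByExpr, scaled by TMM and tested with edgeR 4.0.16 (robust quasi-likelihood fit, no covariate, R 4.3.3), with DESeq2 1.42.0 as an alternative. The procedure was tested on simulated data (3549 genes, 4 false calls). Shares were compared with an exact permutation of mice (scipy 1.17.1).

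Genes are named by rule: among genes past adjusted p 0.05 with non-overlapping groups the 12 largest rises and 12 largest falls, every list member past it, up to 4 members per list by raw p and 4 by CPM, and the 30 leading genes at 100 CPM and 10 counts per mouse. Only some are described, and immunoglobulin genes were to be counted only. Coordinates are those of GENCODE genes on mm10. The correlation of deviations between same-numbered mice was -0.0173, and the labels give no link between them, so the numbers were not taken as pairs. Values of some listed genes are not reported here.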

Additional observations from a re-analysis of the deposited data

Results flagged for a closer look

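Of the 22 genes past the threshold, 13 are listed because an edgeR interaction test found that their change in fibroblasts differed from that in all other assigned cells of the same mice (adjusted p under 0.05). The differences of log2 fold changes below 0 were -3.97 for Tagln, -3.22 for Jchain, -2.34 for Zc3hav1, -1.67 for Igkc, -1.29 for Ier2, -1.28 for Zfp36, -1.05 for Jun, -0.98 for Junb and -0.83 for Fos. Those above 0 were 6.39 for BC028777, 4.04 for Il22, 3.55 for Cxcl9 and 1.28 for Tmem176b. For Il22 and Cxcl9 the Trpv1-ADC values rested on the top cell of each mouse. For BC028777 the top cell of Trpv1-ADC 2 held 46 of its 47 UMIs, and without the top cells its levels were 0 and 0 CPM in CTRL against 265 and 10.4 in Trpv1-ADC mice. For Tagln the difference lay in the tag-negative cells.

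A further 264 barcodes that no comparison between mice uses held fibroblast RNA, with no hashtag clear of the next. Their 14 fibroblast markers summed to 9871 CPM, against 8994 in the 145 fibroblasts with a mouse. Another 738 assigned barcodes held matrix UMIs together with an excluded immune gene, and their 14 markers summed to 5154 CPM, against 163 in cells with no matrix UMI.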

How the results depend on the processing

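The count of 22 genes past the threshold moved to 6 with a stricter tag rule, 5 with HTODemux singlets, 14 with at least 10 matrix UMIs, 13 without Scrublet doublets, 12 without robust estimation, 128 with no filter on low counts and, in a setting chosen after seeing the data, 0 with the own tag at least at the 1st percentile (166 at an unadjusted p under 0.05). It ranged from 99 to 123 when 1 mouse was left out. With at most 5% mitochondrial UMIs it was 31, with DESeq2 31, and without the Il23r-bearing sub-cluster, also chosen after seeing the data, 20. With the mouse number as a replicate block it was 6, of which 5 were among the 22. The numbers are not shown to pair mice, so calls lost under the block are no sign of a weaker effect.

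The count of 17 genes whose change differed from that in the other cells moved to 2 with the stricter tag rule, 2 with HTODemux singlets, 10 with at most 5% mitochondrial UMIs, 11 without Scrublet doublets, 11 without the Il23r-bearing sub-cluster and 0 with the own-tag setting, and was 22 with at least 10 matrix UMIs. The cause was not tested. The difference in fibroblast share ranged from -1.12 to -0.116 points with 1 mouse left out, from -0.659 to -0.098 in the other settings, and kept its sign. The gene comparison without cells holding other-lineage genes was not run, since 18 cells remained. With 16 to 79 cells a mouse the depth limits what can be called: of simulated 1.5-fold changes 0% were called.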

Other observations

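Some mesenchymal and neural genes were uneven between single mice. Markers of reticular stromal cells of lymphoid tissue summed to 77.0 CPM in CTRL 1, 327 in CTRL 2, 118 in Trpv1-ADC 1 and 2011 in Trpv1-ADC 2. Of the last value 1711 CPM was Ccl21a, a chemokine seen in 3 of the 145 cells, and the other 7 markers summed to 75.1, 327, 118 and 299.7 CPM in the same order. Clu, which encodes the chaperone clusterin, was uneven too, at 20.2, 123, 4.52 and 957 CPM, from 17 cells. Enteric glial markers summed to 101 and 96.5 in CTRL and 407 and 648 in Trpv1-ADC fibroblasts. Scn7a, a leading gene of the fibroblasts, stood at 169 and 161 against 380 and 706 (log2 1.66 ± 0.33, edgeR adjusted p = 0.063). Cd55, a complement-regulating surface protein, stood at 235 and 788 against 145 and 96.7 (edgeR adjusted p = 0.49). Clu, Scn7a and Cd55 did not pass the threshold, and the sums were not tested.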
